A study of Mus musculus with 6 samples.

Results

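The aim was to describe genes of the meninges and head mesenchyme in a forebrain in which Dicer was targeted. For this, 10 genes were read by name from the gene counts of mouse rostral telencephalic primordium. They were Foxc1, Foxc2, Foxd1, Twist1, Prrx1, Pdgfra, Lum, Dcn, Snai2 and Tbx18, 10 of the 55471 gene identifiers in the count files. They were matched by gene name, and all 10 were detected in every library. RNA was sequenced from the most rostral telencephalic tissue of embryos at E11.5, with 3 control libraries (DicerF/F, given as WT in the genotype label) and 3 Rx-Dicer libraries (RxCre-DicerF/F). Both genotypes thus carried the floxed Dicer allele (Dicer1tm1Bdh/J), and the Rx-Dicer embryos also carried Cre under regulatory sequences of Rax (Rx). The Rx3-Cre line was kept on a CD1 background and the floxed line on C57BL/6. Rax is an anterior neural fold gene, and the paper reports that recombination within the telencephalon of this line is strongest in its rostral and ventral parts. Recombination in the meninges and head mesenchyme was not measured here. Whether 1 embryo or a pool went into each library is not stated, and p-values here measure the spread between these libraries.

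The embryonic forebrain is covered by mesenchyme that comes mainly from cranial neural crest and partly from head mesoderm, and that forms the meninges, the skull and the dermis. Forkhead, homeobox, T-box and basic helix-loop-helix transcription factors pattern this tissue, PDGF signalling drives its growth, and collagens with small leucine-rich proteoglycans fill its matrix. The meninges in turn give signals to the neuroepithelium beneath. In a dissected piece of telencephalon these genes are read from the cells that remain attached to the neural tissue, and some of them, such as Foxd1, are also used by neural cells of the ventral forebrain and optic region. In bulk tissue, fewer cells of a type and less RNA per cell cannot be told apart.

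The libraries held 34471501 to 48373468 counts on genes, and the genotypes overlapped in depth. The floor of 3 counts came to 0.0620 to 0.0870 CPM, for counting error only. All 10 genes of a telencephalic neuroepithelium list were detected in each of the 6 libraries, so markers of the labelled tissue were present throughout. Normalised counts are raw counts divided by the median-of-ratios size factor of the library. The targeted gene, Dicer1, had 6355, 7070 and 6270 normalised counts in controls 1, 2 and 3, and 4777, 7002 and 4644 in Rx-Dicer 1, 2 and 3. Rx-Dicer 2 stood at the control level, and the log2 fold change was -0.26 ± 0.17 (SE, n = 3 per genotype, DESeq2 adjusted p = 0.567). The deposited genes are whole-gene counts, so reads from outside the floxed part are included. Control 3 is given with and without below, because it held the highest control value of 8 of the 10 mesenchyme genes, against 29.8% of the 17128 genes tested.

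Of the 10 genes, 1 passed the test, Foxd1, which rose in Rx-Dicer tissue. A gene was called at a DESeq2 adjusted p under 0.05 over all genes and a change above a set minimum, a rise of 25% or the matching fall. By this rule 2.93% of the 17128 genes tested were called, 1.75% higher and 1.18% lower in Rx-Dicer, so that 1 call among 10 genes rests on a single gene. The log2 fold change (Rx-Dicer over control) was above 0 for 8 genes and below 0 for 2, with a median of 0.37, against a median of -0.00087 over all genes tested. The median SE of the 10 was 0.29, against 0.17 over all genes. Foxd1 and Lum had an unadjusted DESeq2 p under 0.05, as did 13.1% of all genes. The same 2 genes had 3 Rx-Dicer values above the 3 control values, a pattern found in 8.55% of all genes, while 10.7% had all Rx-Dicer values below. By edgeR's quasi-likelihood test, which called 0.0446% of 17954 genes, none of the 10 was called. At an unadjusted p under 0.05, edgeR gave 2313 genes.

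**Figure D1:**
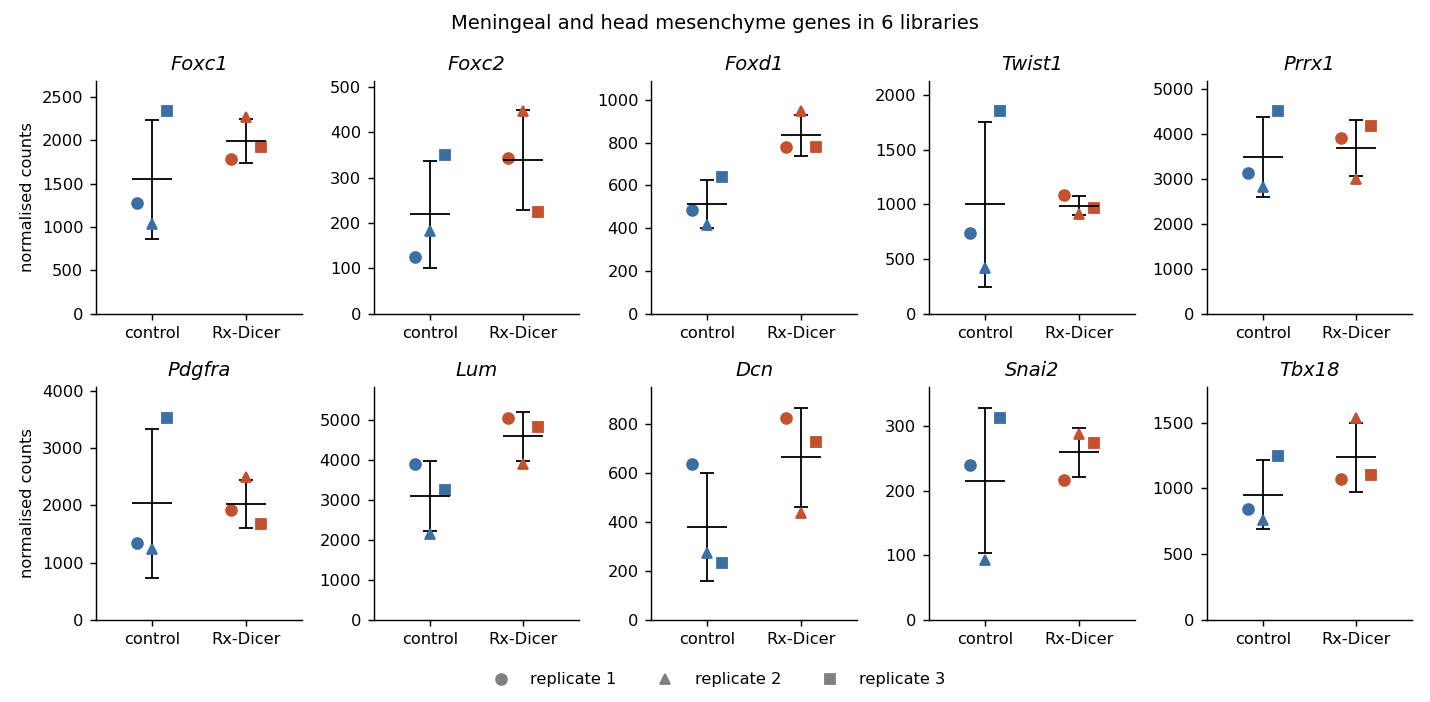
Normalised counts (linear axes from 0) of the 10 genes in 3 control (blue) and 3 Rx-Dicer (orange) libraries; bars are mean ± SD, and symbol shapes give replicate numbers. Foxd1 and Lum are the genes whose groups do not overlap, and control 3 (square) is the highest control for every gene except Lum and Dcn.

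Foxd1 encodes a forkhead transcription factor found in head mesenchyme, kidney stroma, ventral forebrain and temporal retina. Foxd1 (ENSMUSG00000078302, GRCm38 chromosome 13, 98354242 to 98359305, plus strand) had 486, 415 and 638 normalised counts in controls 1, 2 and 3, and 780.5, 945 and 777 in Rx-Dicer 1, 2 and 3. Every Rx-Dicer library lay above every control, with control 3 the nearest. The means were 513 ± 114 and 834 ± 96.4 (SD, n = 3 each). The difference was 0.70 ± 0.19 on the log2 scale (SE), or 1.63-fold with a 95% interval of 1.26 to 2.10 (DESeq2 adjusted p = 0.0142). It was larger than the spread between libraries by that test, but edgeR gave an adjusted p of 0.200 for a log2 fold change of 0.71. Leaving out control 1, control 2, Rx-Dicer 2 or Rx-Dicer 3 ended the call, with DESeq2 adjusted p of 0.0796, 0.153, 0.0959 and 0.0508, whereas the call held without control 3 or Rx-Dicer 1.

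The promoter of the called gene is shown because Foxd1 is the member on which the count rests. It spans 250 bases before to 50 after the start of the gene (RefSeq, GRCm38.p6, chr13:98353995-98354294, plus strand). The capitals mark an E-box, the motif CANNTG bound by basic helix-loop-helix factors such as Twist1:

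Foxd1 promoter: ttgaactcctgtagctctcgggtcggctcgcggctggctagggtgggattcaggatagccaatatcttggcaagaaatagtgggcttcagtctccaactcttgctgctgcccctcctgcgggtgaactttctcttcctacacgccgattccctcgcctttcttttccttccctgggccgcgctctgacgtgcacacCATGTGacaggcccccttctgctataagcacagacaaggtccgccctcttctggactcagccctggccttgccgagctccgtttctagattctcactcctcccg

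The E-box CATGTG of Foxd1 began 54 bases before the start site. RefSeq promoters were matched for 6 of the 10 genes, and 3 of these 6 held CANNTG, which reads the same on both strands and was found in 72.3% of 32851 promoters of this length. Pdgfra held 2 and Tbx18 held 1, while Foxc1, Twist1 and Prrx1 held none. The forkhead motif TGTTTAC, searched on both strands, was in 0 of the 6 and in 3.65% of all promoters. CG dinucleotides numbered 32 in Foxc1, 27 in Twist1, 15 in Foxd1, 15 in Tbx18, 6 in Prrx1 and 5 in Pdgfra, against a median of 7 over all promoters. Among these 6, Foxc1 and Twist1 had the most. The promoters of Foxc2, Lum, Dcn and Snai2 were not analysed here.

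Foxc1 and Foxc2 are closely related forkhead factors of head mesenchyme, and Foxc1 is required for the meninges to form over the forebrain. Foxc1 (ENSMUSG00000050295, GRCm38 chromosome 13, 31806633 to 31812476) had 1278, 1039 and 2335 normalised counts in controls 1, 2 and 3, and 1784, 2273 and 1923 in Rx-Dicer 1, 2 and 3. The Rx-Dicer libraries were close to one another and sat between control 3 above and the other controls below. The log2 fold change was 0.36 ± 0.25 (DESeq2 adjusted p = 0.606), within the spread of the controls. Foxc2 (ENSMUSG00000046714, chromosome 8, 121116171 to 121118895) had 125, 181 and 350.4 normalised counts in the controls, and 343, 446 and 225 in Rx-Dicer. The highest value was in Rx-Dicer 2 and the lowest in control 1, and the groups overlapped. Its difference of 0.62 ± 0.34 did not pass (DESeq2 adjusted p = 0.444, 95% interval -0.05 to 1.30).

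The other transcription factors did not pass the test either. Twist1, a basic helix-loop-helix factor of cranial mesenchyme and neural crest (ENSMUSG00000035799, chromosome 12, 33957671 to 33959829), had 735, 417 and 1852 normalised counts in the controls, and 1088, 912 and 971 in Rx-Dicer. Both extremes were controls, and the Rx-Dicer libraries lay in a narrow band between them. The group means were 1001 ± 754 and 990.3 ± 89.9 (SD, n = 3 each). This gave a log2 fold change of -0.02 ± 0.61 (DESeq2 adjusted p = 0.997). Its 95% interval ran from -1.22 to 1.19, and thus held changes of over 2-fold in both directions. Prrx1, a paired-type homeobox factor of craniofacial and limb mesenchyme (ENSMUSG00000026586, chromosome 1, 163245119 to 163313710), had 3127, 2817 and 4494 in the controls, and 3894, 2990.3 and 4172 in Rx-Dicer. Control 3 was again highest and control 2 lowest, and the difference was 0.08 ± 0.19 (DESeq2 adjusted p = 0.949, 95% interval -0.29 to 0.46).

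Snai2, a zinc finger repressor of neural crest and other migratory cells (ENSMUSG00000022676, chromosome 16, 14705852 to 14709385), had 241, 92.7 and 314 normalised counts in the controls, and 217, 288 and 274 in Rx-Dicer. The value of control 2 stood below all others. The log2 fold change was 0.27 ± 0.34 (DESeq2 adjusted p = 0.872). Tbx18, a T-box factor of mesenchyme and of the mural cells of vessels (ENSMUSG00000032419, chromosome 9, 87702800 to 87731260), had 842, 762 and 1251 in the controls, and 1071, 1540.5 and 1101 in Rx-Dicer. Only control 3 among the controls reached the Rx-Dicer range. The difference of 0.38 ± 0.21 did not pass (DESeq2 adjusted p = 0.461).

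The receptor Pdgfra binds PDGF ligands on mesenchymal cells (ENSMUSG00000029231, chromosome 5, 75152292 to 75198215). It had 1336, 1234 and 3539 normalised counts in the controls, and 1916, 2493 and 1681 in Rx-Dicer. Control 3 was above every other library and the other controls were below every Rx-Dicer library. The group means were 2036 ± 1302 and 2030 ± 418 (SD, n = 3 each). This gave a log2 fold change of -0.0048 ± 0.50 (DESeq2 adjusted p = 0.999, 95% interval -0.99 to 0.98). Of the 5 PDGF ligands and receptors outside the set, 0 passed. Pdgfrb, the mural cell receptor, had 1053 to 2370.1 normalised counts over the libraries, with control 3 highest and a log2 fold change of 0.0015 ± 0.45 (DESeq2 adjusted p = 0.9997). For the ligand Pdgfc the difference was -0.28 ± 0.19 (DESeq2 adjusted p = 0.606) and for Pdgfb it was 0.21 ± 0.22 (DESeq2 adjusted p = 0.810).

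Lum (lumican) and Dcn (decorin) encode small leucine-rich proteoglycans that bind collagen fibrils, and they are neighbours on chromosome 10, with 46984 bases between them. Lum (ENSMUSG00000036446, 97565128 to 97572703) had 3887, 2147 and 3250.3 normalised counts in the controls, and 5060.1, 3891 and 4814 in Rx-Dicer. The groups did not overlap, but Rx-Dicer 2 exceeded control 1 by only a few counts. The means were 3095 ± 880.2 and 4588 ± 616 (SD, n = 3 each). This was a log2 fold change of 0.57 ± 0.20 (DESeq2 adjusted p = 0.10), so the difference did not pass over all genes. Dcn (ENSMUSG00000019929, 97479609 to 97518143) had 636, 275 and 234 in the controls, and 828, 438 and 728 in Rx-Dicer. Control 1 lay within the Rx-Dicer range. Its difference was 0.80 ± 0.52 (DESeq2 adjusted p = 0.580), the largest in size of the 10 with the widest interval after Twist1, -0.22 to 1.83.

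Of 8 further proteoglycans of this class, 5 could be tested and 0 passed. Biglycan (Bgn), with the highest count, had 983 to 1873 normalised counts and a log2 fold change of 0.17 ± 0.22 (DESeq2 adjusted p = 0.873). Values for Ogn were 0.14 ± 0.40 (DESeq2 adjusted p = 0.961), and for Prelp -0.30 ± 0.51 (DESeq2 adjusted p = 0.918). Kera and Epyc, the next genes along the chromosome after Lum, are on this list. Epyc had 12.2 to 49.4 normalised counts with a difference of 0.86 ± 0.58 (DESeq2 adjusted p = 0.602), and Kera had 1.02 to 11.4 and was left out by the filter on low means.

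**Figure D2:**
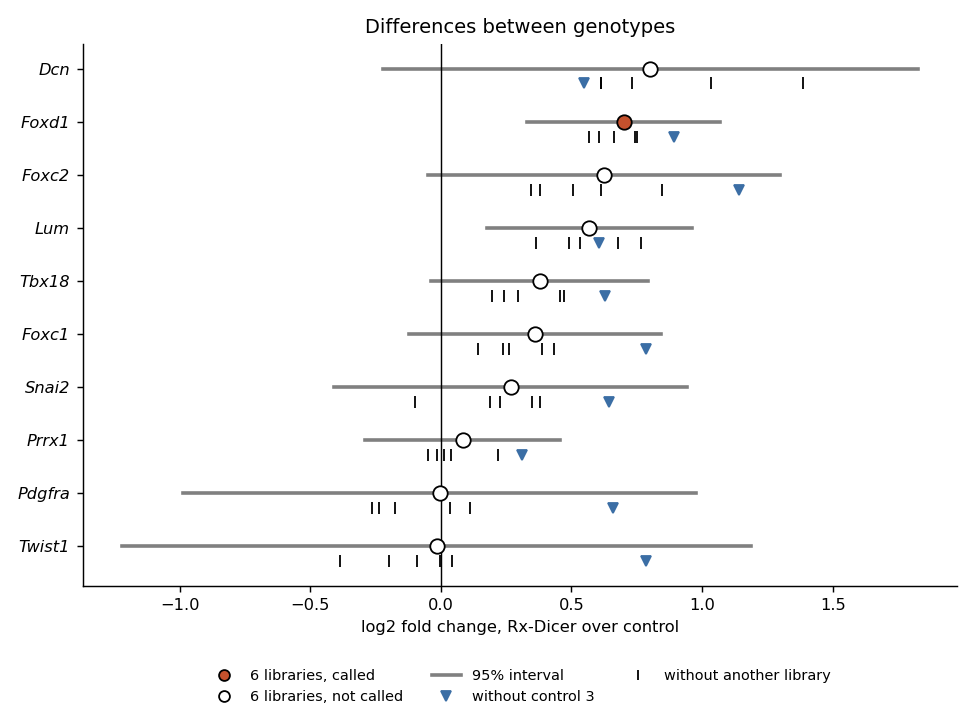
Log2 fold change of each gene, Rx-Dicer over control, with its 95% interval from the DESeq2 fit of 6 libraries (circles), and the values with 1 library left out (marks below each circle). Without control 3 (blue triangles) every gene but Dcn moves to a higher value, and Twist1 and Pdgfra move from near 0 to 0.78 and 0.66.

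These genes spread widely among the controls. The median coefficient of variation of the 10 was 48.4% among controls and 15.6% among Rx-Dicer libraries, against 10.9% and 12.8% over all genes tested. Among controls it ranged from 22.2% for Foxd1 to 75.3% for Twist1, so each member stood above the median gene. The summed level of the 10 was 12692, 9379 and 18258 normalised counts in controls 1, 2 and 3, and 16982, 16218 and 16666 in Rx-Dicer. The controls therefore spanned all of the Rx-Dicer sums, which lay within a few percent of one another.

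Controls 2 and 3 marked the ends of this span. Control 2 was the lowest control for 8 of the 10 genes, against 30.4% of all genes. Control 3 exceeded the mean of controls 1 and 2 by 3.22-fold for Twist1, 2.75-fold for Pdgfra, 2.29-fold for Foxc2 and 2.02-fold for Foxc1. For Lum this ratio was 1.08 and for Dcn it was 0.513. Among the controls, Lum and Dcn were highest in control 1 and the other 8 genes in control 3. Lum was lowest in control 2 and Dcn in control 3. The median log2 deviation from the gene's own mean over the 8 genes other than Lum and Dcn was -0.38, -0.63 and 0.46 in controls 1, 2 and 3, and 0.11, 0.41 and 0.14 in Rx-Dicer. For Lum and Dcn it was 0.25, -0.78 and -0.60 in the controls, and 0.63, -0.02 and 0.50 in Rx-Dicer. In control 3 these 2 genes differed, with -0.19 for Lum and -1.01 for Dcn. This split was seen after the values were known and was not tested.

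Which genes were called depended on which control was kept. Control 3 was singled out as the highest control for 8 of the 10 genes, and leaving it out lowers the control mean of those 8. Calls of a rise without it follow in part from that choice, and the share over all genes is not a like comparison. Without control 3, 4 of the 10 were called, all higher in Rx-Dicer, in a fit that called 2.17% of 15722 genes. These were Foxc1 (0.78 ± 0.18, DESeq2 adjusted p = 0.00138), Foxc2 (1.14 ± 0.34, adjusted p = 0.0371), Foxd1 (0.89 ± 0.18, adjusted p = 2.9e-04) and Pdgfra (0.66 ± 0.20, adjusted p = 0.0432). Twist1 had 0.78 ± 0.25 there and did not pass (DESeq2 adjusted p = 0.0664). Without control 1, Lum (0.76 ± 0.21, DESeq2 adjusted p = 0.0168) and Dcn (1.39 ± 0.29, adjusted p = 2.6e-04) were called and Foxd1 was not, in a fit that called 3.49% of genes. Without control 2, Rx-Dicer 2 or Rx-Dicer 3, 0 of the 10 were called, in fits that called 1.53%, 3.77% and 2.20% of genes. Without Rx-Dicer 1 the single call was Foxd1, with 4.22% of genes called. How much mesenchyme each piece of tissue contained was not measured.

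**Figure D3:**
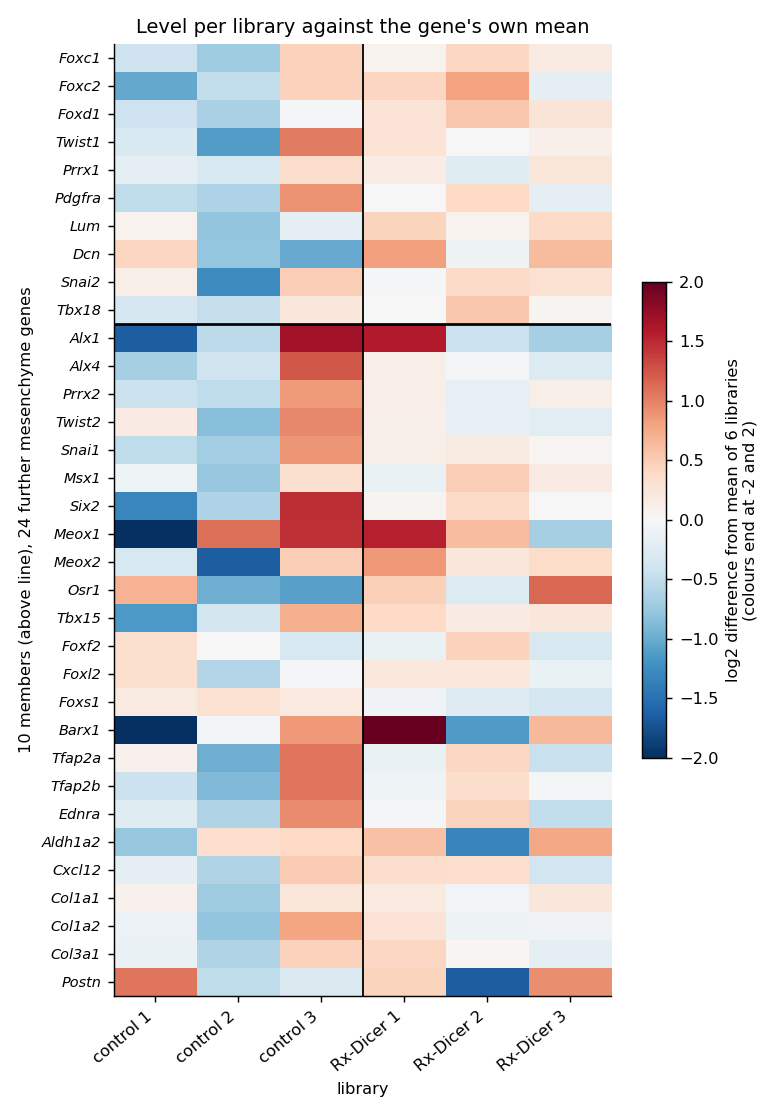
Log2 difference of each library (columns) from the mean of 6 libraries for the 10 genes (above the line) and 24 of the 26 further mesenchyme genes tested (below); red is higher and blue is lower. Control 2 is blue and control 3 red for most genes, while Lum and Dcn, and some genes below the line, are higher in control 1 than in control 3.

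A like order of the controls was seen in a wider list of 30 genes of head mesenchyme and meninges. Of these, 26 could be tested and 0 passed. The median log2 deviation of the 26 was 0.24, 0.10 and -0.02 in Rx-Dicer 1, 2 and 3. For the 10 members it was 0.21, 0.38 and 0.21, so the Rx-Dicer libraries followed another order. Control 3 was the highest control for 21 of the 26, and their median coefficient of variation among controls was 62.2%. Their median log2 fold change was 0.03, with 15 above 0 and 11 below. The collagens of the mesenchymal matrix had the highest counts. Col3a1 had 24927, 18103 and 37525 normalised counts in the controls, and 36493, 28139 and 24255 in Rx-Dicer, a difference of 0.14 ± 0.23 (DESeq2 adjusted p = 0.909). Col1a2 differed by -0.06 ± 0.43 (DESeq2 adjusted p = 0.987) and Col1a1 by 0.19 ± 0.21 (DESeq2 adjusted p = 0.830). Leaving out control 3 lowers the control mean of the 21 genes for which it was highest, so calls of a rise follow in part from that choice. Without control 3, 5 of this list were called higher, with DESeq2 adjusted p from 7.2e-04 to 0.0304. Among them were Snai1 (0.72 ± 0.20), Six2 (1.08 ± 0.23) and Tfap2b (0.73 ± 0.21). Without control 1 the 1 call was Osr1 (1.60 ± 0.45, DESeq2 adjusted p = 0.0162).

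The genes whose levels over the 6 libraries were most like the mean z-score of the 10 were, among 14059 genes, Birc3, an inhibitor of apoptosis (Pearson r = 0.987), the protease inhibitor Lxn (0.985), the carboxypeptidase-like Cpxm1 (0.984), the TGF-beta co-receptor Tgfbr3 (0.981) and the RNA-binding protein Rbms1 (0.980). These 6 points share libraries and scaling with the members, and the values are a description. By rank the likeness was lower, with Spearman rho from 0.486 for Cpxm1 to 0.943 for Lxn. The z-score was -0.52, -1.35 and 0.55 in the controls, and 0.43, 0.52 and 0.37 in Rx-Dicer. None of the 5 genes was called, and Cpxm1, for example, had 700, 590 and 855 normalised counts in the controls against 859, 891 and 902 in Rx-Dicer, a log2 fold change of 0.31 ± 0.16 (DESeq2 adjusted p = 0.429).

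Levels were compared between genes per length, as normalised counts per kb of annotated exon. Lum was highest, with a mean of 1569 over the 6 libraries and a range of 877 to 2067. Twist1 followed with 612 (256 to 1138), Prrx1 with 324 (255 to 406) and Foxc1 with 303 (178 to 400). Tbx18 (232), Pdgfra (203), Foxd1 (133), Snai2 (118), Foxc2 (102) and Dcn (89.6) had the lower means. Each pair of neighbours in this order overlapped in range over libraries. Within libraries, Lum exceeded Twist1 in 6 of 6 and Twist1 exceeded Prrx1 in 6 of 6, while Snai2 and Foxc2 exceeded the next gene in 3 of 6 and so could not be ordered. Dcn likewise had no fixed place among the lower genes.

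**Figure D4:**
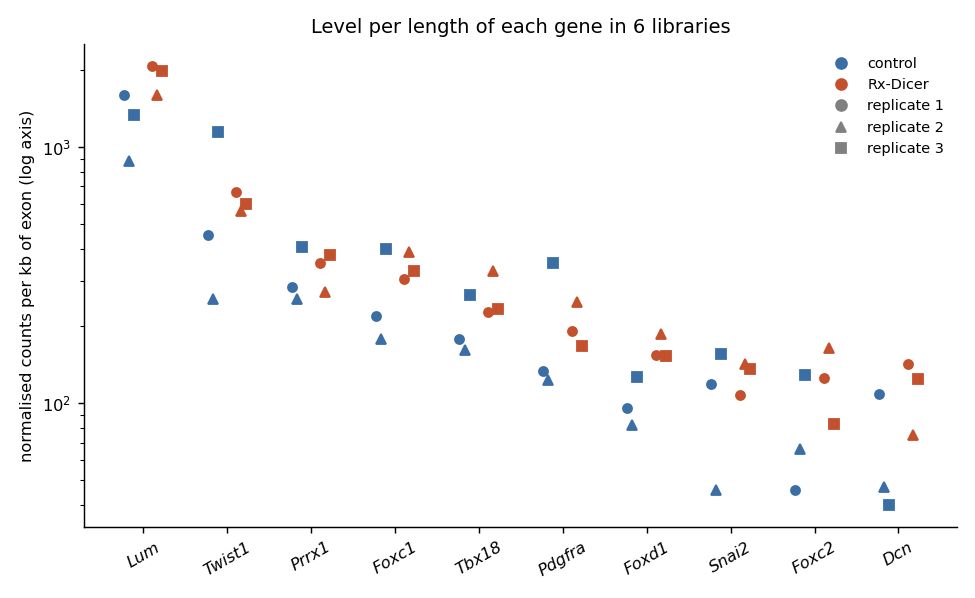
Normalised counts per kb of exon (log axis) for the 10 genes in order of their mean, with 3 control (blue) and 3 Rx-Dicer (orange) libraries each. Lum lies at 877 to 2067 and Dcn at 40.1 to 142, and control 2 (blue triangle) is lowest for most genes.

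Values of other cell types were read beside these results. The optic and hypothalamic neuroepithelium, where Foxd1 is also used, was read first. Of 11 genes, 6 were detected in all libraries and 7 could be tested, of which 2 were called, both higher. Vax1, a homeobox gene of the ventral forebrain and optic stalk, had 176, 225 and 312 normalised counts in the controls, and 429, 662 and 420.2 in Rx-Dicer (1.08 ± 0.25, DESeq2 adjusted p = 0.00261). Otp, a hypothalamic homeobox gene, had 2.44 to 7.52 in the controls and 14.3 to 69.5 in Rx-Dicer (3.40 ± 0.74, DESeq2 adjusted p = 7e-04). The gene with the highest count, Nkx2-1, had 3.66, 51.9 and 192 in the controls, and 682, 1882 and 1307 in Rx-Dicer, and did not pass (3.97 ± 1.26, DESeq2 adjusted p = 0.0549). The summed level of this list was 445 to 646 in controls and 1520, 2779 and 2202 in Rx-Dicer 1, 2 and 3, most of the sum in Rx-Dicer 2 being Nkx2-1. The median log2 deviation over the 7 tested genes was -0.01, -0.87 and -0.50 in controls 1, 2 and 3. It was 1.68, 0.51 and 1.28 in Rx-Dicer 1, 2 and 3, each above every control, as for Foxd1. Within Rx-Dicer this median was lowest in library 2, where Foxd1, Vax1 and Nkx2-1 were highest. The part of these neural cells in the Foxd1 difference was not tested.

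Among 10 telencephalic neuroepithelium genes, all tested, Six3, an anterior forebrain homeobox gene, was called higher (1.27 ± 0.22, DESeq2 adjusted p = 6.3e-06), and Fabp7, a radial glia gene, was called lower (-0.76 ± 0.22, DESeq2 adjusted p = 0.0307). Nes, the gene with the highest count before scaling by length, differed by -0.37 ± 0.17 (DESeq2 adjusted p = 0.287). Their sum was 110898 to 133737 in controls and 103163 to 113146 in Rx-Dicer. Microglia and macrophage genes, 8 of 8 tested, included 2 called higher, the receptors Csf1r (0.98 ± 0.29, DESeq2 adjusted p = 0.0330) and Cx3cr1 (1.18 ± 0.31, DESeq2 adjusted p = 0.0101). Mrc1, a marker of border macrophages, differed by 0.63 ± 0.23 (DESeq2 adjusted p = 0.132). Their sum was 1217 to 1611 in controls, and 4114, 1474 and 2758 in Rx-Dicer 1, 2 and 3. In Rx-Dicer, Lum and Dcn were likewise highest in library 1 and lowest in library 2, and the part of these cells was not tested.

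The remaining lists had 0 calls. Endothelial genes (10 of 10 tested) summed to 8206 to 8636 in controls, a narrow band in the libraries where the mesenchyme genes spread widely, and to 5035 to 11004 in Rx-Dicer, with Cdh5 at 0.12 ± 0.43 (DESeq2 adjusted p = 0.971). Pericyte genes (6 of 7 tested, Higd1b at 0 in all libraries) summed to 2182 to 3123 in controls and 1473 to 2729 in Rx-Dicer. Surface ectoderm genes (10 of 10) summed to 3811, 635 and 2002 in controls, lowest in control 2 as the mesenchyme genes were, and to 902 to 2069 in Rx-Dicer, with Epcam, the gene of highest count, at 0.22 ± 0.49 (DESeq2 adjusted p = 0.948). The median log2 fold change of these 10 was -1.21, with 8 below 0, and Trp63 was at -3.92 ± 1.52 (DESeq2 adjusted p = 0.161) and Krt5 at -3.47 ± 1.29 (DESeq2 adjusted p = 0.137). Neural crest and glial precursor genes (6 of 6) summed to 1661 to 2266 in controls and 1953 to 2576 in Rx-Dicer, with Ets1 at 0.27 ± 0.22 (DESeq2 adjusted p = 0.728). Early neuron genes (7 of 7) summed to 53088 to 66569 and 43933 to 57455, with Tubb3 at -0.25 ± 0.15 (DESeq2 adjusted p = 0.520). Erythroid genes (8 of 8) summed to 421182 to 972427 and 347214 to 968790.0, with Hbb-y at -0.11 ± 0.56 (DESeq2 adjusted p = 0.982). How far these cells moved the mesenchyme genes was not tested.

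Because Dicer cuts precursors into mature miRNAs, the annotated 3′ UTRs of the 10 genes were searched for matches to bases 2 to 8 of let-7 and miR-9, which are abundant in developing brain. The mature sequences (RefSeq) are shown with this seed in capitals, followed by the 2 sites that bear on Prrx1 and Lum, with the match in capitals:

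mmu-let-7a-5p: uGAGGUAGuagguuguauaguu

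mmu-miR-9-5p: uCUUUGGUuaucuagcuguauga

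Prrx1 let-7 site, GRCm38 chr1:163255046-163255053, minus strand: tatctaaattCTACCTCAtggctcaagc

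Lum miR-9 site, GRCm38 chr10:97572525-97572532, plus strand: tttgcaagatACCAAAGAaaattaatga

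The let-7 word CTACCTC was found in 1 of the 10 UTRs, that of Prrx1, and in 10.7% of 14053 tested genes with a 3′ UTR. It was the 8-base form with A opposite base 1, which 3.78% of genes held. Prrx1 had a log2 fold change of 0.08 ± 0.19. The miR-9 word ACCAAAG was found in 4 of the 10, against 14.2% of genes, with 3 matches in Prrx1, 2 in Tbx18, 1 in Lum and 1 in Snai2. None of these 4 was called. Foxd1, the called gene, held neither word in a UTR of 3315 bases. UTR lengths ran from 488 bases in Dcn to 4891 in Prrx1, and the counts were not adjusted for length. A match is a run of letters and not a measured site, and the miRNAs were not measured in these libraries.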

How the data were processed

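RNA-seq of E11.5 mouse rostral telencephalic primordium was analysed (3 control, 3 Rx-Dicer). The authors deposited raw counts per gene in 2 files per sample. Per their methods and processing notes, reads were trimmed (Trim Galore 0.6.5), aligned to GRCm38.p6 (HISAT2) and counted with HTSeq 0.12.4, and reads overlapping several genes or places were left out. The 2 files of a sample differed far less (chi-square per degree of freedom 1.11 to 1.47) than samples of a group did (20.5 to 29.6), and were summed. Rows naming no gene were left out of library sizes. They held 24.9 to 31.0% of all reads, and reads in no feature alone were 6.79 to 10.7% of all reads.

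Genotypes were compared over all genes with the DESeq2 1.42.0 Wald test (R 4.3.3, the study's tool), with median-of-ratios factors, unshrunken log2 fold change, Benjamini-Hochberg adjustment and independent filtering. Log2 deviations and likeness used a pseudocount of 0.5, and likeness genes with a mean of at least 50 normalised counts. The edgeR 4.0.16 quasi-likelihood test (TMM, at least 10 counts in at least 3 samples) was an alternative. Others were TMM or total-count scaling, filters, thresholds, each file alone, a replicate block, and leaving out each library. Both tests were tested on simulated data.

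The members and gene lists were chosen with earlier results of these data known. Named genes were the 10 members, Dicer1, called genes and the 3 with the highest counts of the wider mesenchyme, PDGF and proteoglycan lists, called genes and the gene with the highest count of each other list, and the 5 genes most like the members. Genome neighbours of members (Kera, Epyc, Foxl1, Foxf2, Foxq1), Trp63, Krt5 and genes called with a library left out were named after their values were seen. The values of a few list genes are not reported here, and these genes stay in the counts. GENCODE M21 (GRCm38) gave 55230 of the 55471 identifiers, exon lengths and 3′ UTRs (the longest per gene).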

Additional observations from a re-analysis of the deposited data

How the results depend on the processing

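The count of called members was 1 under TMM and total-count scaling, a low-count filter, no independent filtering, an adjusted p under 0.1 and each file alone. It was 0 by edgeR and at a minimum change of 2-fold, and 0 to 4 with 1 library left out. For the wider mesenchyme list it was 0 to 5 with 1 library left out. Over all genes, 502 were called, but 8 by edgeR, 322 without independent filtering, 122 at 2-fold, and 285 to 637 with 1 library left out. The median log2 fold change of the 10 stayed above 0 throughout, from 0.19 to 0.65 with 1 library left out.

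Genes near 0 changed sign. Pdgfra was 0.013 with total counts, 9.3e-04 by edgeR, 0.0015 with the low-count filter and 0.0052 in the second file, and Twist1 was 0.037 in the second file. With 1 library left out, Twist1 ran from -0.39 to 0.78, Pdgfra from -0.26 to 0.66, Prrx1 from -0.048 to 0.31 and Snai2 from -0.10 to 0.65. The cause was not tested.

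With the replicate number as a replicate block, 314 genes and 2 members were called, Lum (0.60, DESeq2 adjusted p = 0.00728) and Dcn (0.89, adjusted p = 0.0471). Foxd1 was 0.72 (adjusted p = 0.0570), Twist1 0.27 and Pdgfra 0.17. Deviations of same-numbered samples correlated at 0.19, 0.04 and -0.14 over genes, and not every sample correlated best with its own number. With 3 libraries per genotype these values cannot decide whether same-numbered samples were littermates. The paper compared mutants with control littermates, and the labels give only replicate numbers.

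Depth did not limit the members, whose lowest raw count was 91 (Snai2, control 2).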

Other observations

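Foxl1, a forkhead gene 9044 bases from Foxc2 on chromosome 8, was named after its values were seen. It had 6.11, 37.7 and 8.45 normalised counts in controls 1, 2 and 3, and 41.2, 64.2 and 65.6 in Rx-Dicer 1, 2 and 3. The groups did not overlap, as in 8.55% of genes, and the log2 fold change of 1.70 ± 0.61 did not pass (DESeq2 adjusted p = 0.115). Its library order differed from that of Foxc2, with control 2 rather than control 3 the highest control. Foxf2 and Foxq1, the forkhead neighbours of Foxc1 on chromosome 13 at 175229 and 245656 bases, differed by 0.02 ± 0.25 (DESeq2 adjusted p = 0.993) and -0.08 ± 0.33 (DESeq2 adjusted p = 0.974). Both were lowest among the controls in control 3, where Foxc1 was highest.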
